A study of Mus musculus with 2 samples.

Results

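The cytochrome P450 genes of the mouse were compared between the airway epithelium of a foetus at E14.5, a stage counted in embryonic days, and that of a foetus at E18.5. The members were all genes whose probes carried a name starting with Cyp and a number on the array, leaving out Cyp51, which belongs to cholesterol synthesis. This gave 71 of the 19748 named genes of the array, read by 103 of its 41170 probes. They were taken as 5 groups by family: Cyp1 with 3 members, Cyp2 with 35, Cyp3 with 6, Cyp4 with 11, and the Cyps of sterols, steroids, vitamin D and retinoids with 16. The last group holds every family from Cyp7 upwards, including Cyp20a1, whose substrate is not settled.

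P450s are heme enzymes of the endoplasmic reticulum and of mitochondria that insert an oxygen atom into lipophilic substrates. Those of the endoplasmic reticulum receive their electrons from P450 oxidoreductase, and those of mitochondria from a ferredoxin and its reductase. Families Cyp1 to Cyp3 act largely on foreign compounds, Cyp4 on fatty acids, and the higher-numbered families on sterols, steroid hormones, vitamin D and retinoic acid. In the lung, club cells of the airways carry much of the P450 of the tissue and are for this reason sensitive to compounds such as naphthalene, which P450s turn into reactive products.

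The study searched for genes that act downstream of FOXJ1, the factor that directs the making of motile cilia. Both samples came from male wild-type CD-1 mice, without any allele or agent, and each consisted of epithelium cut by laser from the airways within the lobes of 1 lung. RNA amplified from both was hybridised together on 1 array, E14.5 in green (Cy3) and E18.5 in red (Cy5), with no exchange of the dyes, so a dye effect and an age effect cannot be told apart. There was 1 sample per age, so no difference below has a replicate check or a p-value, and a gene was called by size alone, at 2-fold or more. Log2 ratios are E18.5 over E14.5, and intensities are normalized spot brightness in arbitrary units, which can be compared between the ages for 1 probe but not between probes.

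The array was read with a median net signal of 256 at E14.5 against 308 at E18.5, and 75.2% and 78.7% of all probes were well above background. Among the P450 probes the shares were 62.1% (64 of 103) and 72.8% (75 of 103). The spread that could be measured was technical: repeated spots of a probe had a median SD of 0.05 in the log2 ratio (245 probes, none of them of a P450), and different probes of a gene had a median SD of 0.33 over 6890 genes and 0.2 over the 14 P450 genes with such probes. The tissue was checked against its markers. Of 10 epithelial genes, all were measured, and at E18.5 5 stood higher by 2-fold or more and 1 lower. Over all genes the shares were 17.2% and 10.0%. Of 10 club cell genes, all were measured and 9 were at least 2-fold higher, and their summed intensity was 41426 at E14.5 against 1447056 at E18.5.

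Of the 71 P450 genes, 59 gave a value. Signal stood well above background for 49 at both ages, for 9 only at E18.5 and for 1 only at E14.5. Over all 17315 measured genes, this held for 805 only at E18.5 and for 193 only at E14.5. At least 2-fold higher at E18.5 were 16 of the 59 (27.1%), against 17.2% of the 17315 genes measured the same way. In this setting 0 of the 59 were at least 2-fold lower, against 10.0% of all genes, while the scanner software's processed signals put 2 of them there, Cyp26a1 and Cyp2u1. At least 8-fold higher were 6 of them, Cyp2f2, Cyp2b9, Cyp4b1, Cyp2b13, Cyp2b10 and Cyp2s1, where the share over all genes was 3.15%. Of these, Cyp2b9 and Cyp2b13 were read by probes listed for several genes. With probes listed for 1 gene alone, 4 members remained at least 8-fold higher in this setting. From the processed signals the Cyp2b9 probe listed for it alone gave a log2 ratio of 4.39, past 8-fold. The other 43 lay within 2-fold. Over the 49 measured at both ages the median log2 ratio was 0.39, with a range from -0.57 to 7.60. The median over all genes was 0.05. Of the 49, 38 were above 0 and 10 below. This split includes ratios smaller than the median SD of 0.33 between probes of a gene. In whole pieces of tissue, a change in the number of cells of a type and a change in the RNA per cell cannot be told apart.

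**Figure D1:**
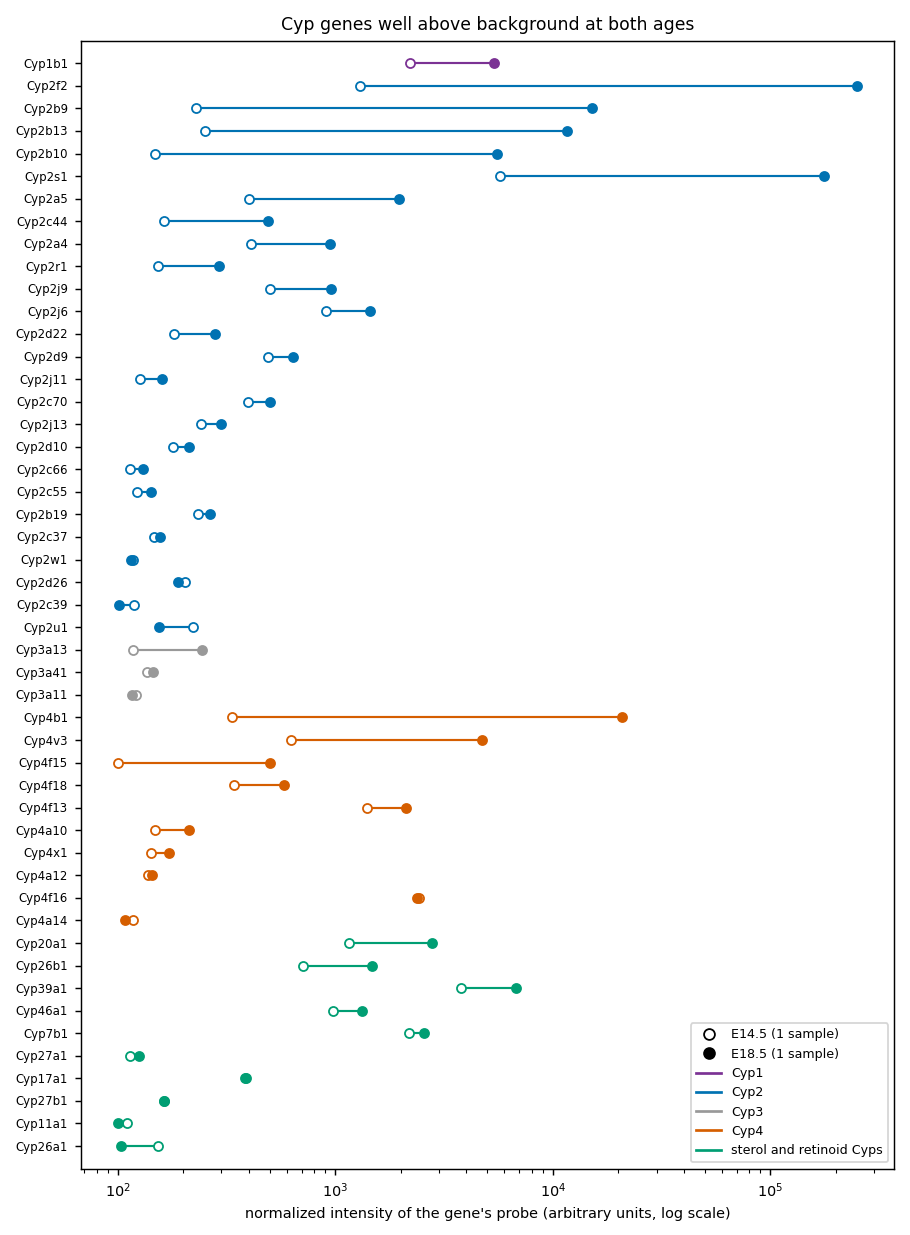
Normalized intensity on a log axis at E14.5 (open) and E18.5 (filled) for the 49 P450 genes well above background at both ages, coloured by group, 1 sample per age. Long lines belong to Cyp2f2, Cyp2s1, the Cyp2b genes and Cyp4b1, while most other genes have both points close together; points are to be compared within a gene and not between genes.

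**Figure D2:**
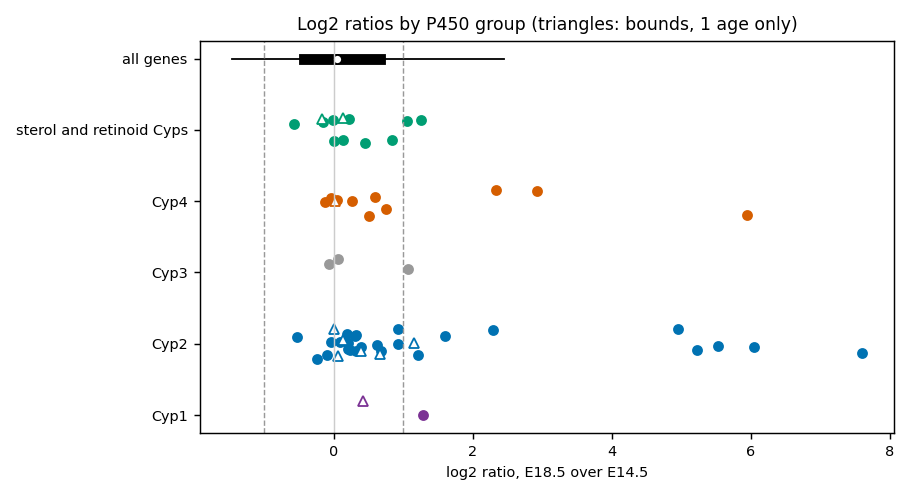
Log2 ratio of each measured P450 gene by group (circles, measured at both ages; triangles, bounds from 1 age), with dashed lines at 2-fold in each direction. The uppermost line shows all genes of the array with their median (0.05), quartiles (-0.43 and 0.67) and the 5th and 95th percentiles (-1.46 and 2.45); the 6 points above 8-fold are 5 Cyp2 genes and 1 Cyp4 gene.

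The Cyp2 family held 9 of the 16 higher genes, out of 31 measured members (29.0%, against 17.2% of all genes). It also held 5 of the 6 that were at least 8-fold higher. Its median log2 ratio over 25 members measured at both ages was 0.39. Cyp2f2, the club cell enzyme that activates naphthalene, had an intensity of 1295 at E14.5 against 251625 at E18.5. Its E18.5 value was 194-fold higher, a log2 ratio of 7.60, and the scanner software's own processed signals gave 7.56. It was the highest ratio among the P450s. Its probe lies on chromosome 7 (chr7:26842311-26842370 on the build mm8, forward strand). Cyp2s1, a P450 of epithelia that face the outside, had an intensity of 5707 at E14.5 against 176994 at E18.5. The difference was 31.0-fold, a log2 ratio of 4.95, and 4.91 from the processed signals. This value rests on 1 probe (chr7:25511245-25511304, mm8, reverse strand), since the other probe of Cyp2s1 was not well above background at either age.

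Cyp2f2, Cyp2s1 and Cyp4b1 were each at least 8-fold higher by a probe listed for that gene alone, and the first 30 of the 60 bases of these probes are shown, since they define what was measured.
Cyp2f2: aatgacgtgacaaaggtgaaatacccgtct
Cyp2s1: cagaagccatagctgacctctttgtgactt
Cyp4b1: aaagcatgcacattgagagtatcctggaag

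The Cyp2b genes, some of them phenobarbital-inducible P450s in the liver, are close copies of each other, and their probes did not give the same answer. Cyp2b9 had an intensity of 230 at E14.5 against 15128 at E18.5 by the probe used, 65.7-fold higher, a log2 ratio of 6.04. That probe is listed in the deposited table for Cyp2b9 and Cyp2b10. The other Cyp2b9 probe, listed for Cyp2b9 alone, gave 104 and 670, a log2 ratio of 2.69, and 4.39 from the processed signals. Both probes were higher at E18.5, with ratios 3.35 log2 units apart. Cyp2b13 had 252 at E14.5 against 11643 at E18.5 by the probe used, 46.2-fold higher, a log2 ratio of 5.53. That probe is listed for Cyp2b9, Cyp2b10, Cyp2b13 and Cyp2b23. The Cyp2b13 probe listed for that gene alone gave 140 and 339, a log2 ratio of 1.27, so that the 2 probes lay 4.26 log2 units apart. Cyp2b10 had 148 at E14.5 against 5541 at E18.5, 37.4-fold higher, a log2 ratio of 5.22, and its other probe gave 173 and 4157, a log2 ratio of 4.59. The Cyp2b10 probe used is listed for no other named gene. High ratios assigned to Cyp2b9 and Cyp2b13 therefore came from probes that also name Cyp2b10, and the probes that name either gene alone gave smaller ratios, 2.69 and 1.27 on the log2 scale. A further probe, for a transcript described as Cyp2b13 but named outside the rule, had 465 and 589, a log2 ratio of 0.34, within 2-fold. It lies at chr7:25659114-25659173 (mm8), apart from the Cyp2b13 probes (chr7:25797498-25804705), and whether it measures Cyp2b13 was not tested. The remaining member, Cyp2b19, a P450 of skin, had 234 and 266, a log2 ratio of 0.19. All 4 Cyp2b members were measured, and 3 were at least 2-fold higher, against 17.2% of all genes.

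The first 30 bases of the Cyp2b probes are set side by side here because which of these genes was measured depends on them. The probe used for the gene's value comes before the other one.
Cyp2b9, listed for Cyp2b9 and Cyp2b10: taaggtctgatttctatgtctacagacttg
Cyp2b9, listed for it alone: cagacaaattgtcaaaaaacagcaggaact
Cyp2b13, listed for 4 genes: cacaggaaagcgcatttgtcttggtgaaag
Cyp2b13, listed for it alone: agagctgctggaaactagactgtatgttgc
Cyp2b10, probe used: tcagagattttcagatcttatacctattgg
Cyp2b10, other probe: gaaaagtgaagcttttctgcccttctcaac

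The Cyp2a enzymes, which include hydroxylases of coumarin, nicotine and testosterone, differed less between the ages. Cyp2a5 had an intensity of 401 at E14.5 against 1974 at E18.5, 4.92-fold higher, a log2 ratio of 2.30, and its other probe gave 2.26. Cyp2a4 had 410 and 945, 2.31-fold higher, a log2 ratio of 1.21, and its other probe gave 164 and 629, a log2 ratio of 1.94. Both Cyp2a4 probes are listed for Cyp2a5 as well, so the values of these genes cannot be separated in full. A stretch shared by a Cyp2a4 probe and the Cyp2a5 probe used shows how close the copies are: over 38 aligned bases 35 were identical. The 3 differing bases are in capitals.
Cyp2a4, other probe, bases 23 to 52: aggacacTTCgtagacttgcagaggatatt
Cyp2a5, probe used, bases 1 to 30: aggacacAGAgtagacttgcagaggatatt
Cyp2a12 was well above background at E18.5 only, with 113 there and 86 at E14.5, at least 1.32-fold higher.

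These Cyp2a, Cyp2b, Cyp2f and Cyp2s genes lie together. When P450 probes less than 1 Mb apart were joined, chromosome 7 had a run of 10 members over 1331 kb (chr7:25511245-26842370, mm8). All 10 were measured, and 7 of them were higher at E18.5 by 2-fold or more, against 17.2% of all genes. Probes named outside the rule also lie in this interval and were not counted. That of Cyp2b23 was well above background at E18.5 only (83 and 120). That of the transcript described as Cyp2b13 had a log2 ratio of 0.34. In order along the chromosome the log2 ratio was 4.95 for Cyp2s1, 5.22 for Cyp2b10, 5.53 for Cyp2b13, 6.04 for Cyp2b9, 1.21 for Cyp2a4 and 0.19 for Cyp2b19. It continued with a bound for Cyp2g1, an olfactory P450 measured at E18.5 only (90 and 94, at least 1.05-fold), then 2.30 for Cyp2a5, the bound for Cyp2a12, and 7.60 for Cyp2f2. The genes at both ends and those between Cyp2s1 and Cyp2b9 had high ratios, and genes within 2-fold stood among them in the second part of the run. The values of Cyp2b13, Cyp2b9 and Cyp2a4 in this run come from probes listed for several genes, and those of Cyp2s1 and Cyp2f2 from probes listed for 1 gene each. Binding of any of these probes to other copies was not tested.

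**Figure D3:**
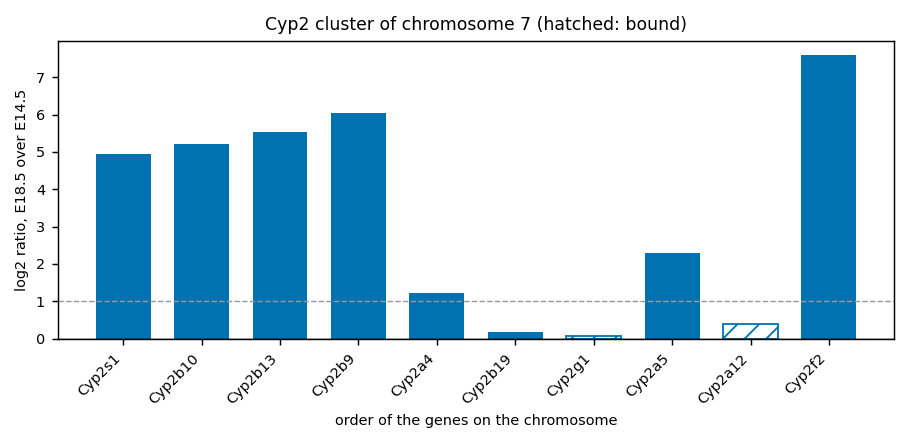
Log2 ratio, E18.5 over E14.5, of the 10 P450 members of the chromosome 7 run in their order along the chromosome, 1 sample per age. Hatched bars are bounds and the dashed line is 2-fold. Probes named outside the rule are not drawn. Bars for Cyp2s1, Cyp2b10, Cyp2b13, Cyp2b9 and Cyp2f2 reach between 4.95 and 7.60, while Cyp2b19, Cyp2g1 and Cyp2a12 stay under 1.

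Other runs of neighbouring P450 genes showed fewer such values. Each count stands beside the 17.2% of all genes that were at least 2-fold higher. The Cyp2c run of chromosome 19 had 10 members, 7 measured and 0 at least 2-fold higher. The Cyp2j run of chromosome 4 had 5 measured members and the Cyp2d run of chromosome 15 had 4, again with 0 higher. In the Cyp4f run of chromosome 17, 1 of 4 measured members was higher, and in the Cyp4a, Cyp4b and Cyp4x run of chromosome 4 it was 1 of 5. The Cyp3a run of chromosome 5 had 5 members, of which 2 were measured and 0 higher, and the run of Cyp1a1, Cyp1a2 and Cyp11a1 on chromosome 9 likewise had 2 measured and 0 higher.

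Outside the chromosome 7 run, 2 Cyp2 genes were higher. Cyp2c44, an arachidonic acid epoxygenase now named Cyp2c23, had an intensity of 163 at E14.5 against 493 at E18.5, 3.03-fold higher, a log2 ratio of 1.60. It was the 1 higher gene of 8 measured Cyp2c members, and its probe lies on chromosome 19, apart from the other Cyp2c genes. Cyp2e1, which oxidises ethanol and small solvents, was not well above background at E14.5 (73) and had 186 at E18.5, at least 2.23-fold higher. Of the remaining Cyp2 members measured at E18.5 only, Cyp2c29 had 94 and 149 (at least 1.59-fold), Cyp2j5 had 84 and 93 (at least 1.1-fold), and Cyp2c40 had 101 and 94, for which no fold was formed. The 5 Cyp2j genes, epoxygenases of arachidonic acid, and the 4 measured Cyp2d genes all lay within 2-fold. Cyp2r1, the vitamin D hydroxylase of the endoplasmic reticulum, had 153 and 292, a log2 ratio of 0.93, just under the 2-fold line. It passed that line with the processed signals and the authors' value table (1.45 in both), with the smaller offset (1.12) and with median centring (1.03). Cyp2d9, a steroid hydroxylase in male liver, had probes more than 1 log2 unit apart. The probe used gave 489 and 642, a log2 ratio of 0.39, and the other gave 247 and 856, a log2 ratio of 1.79. The former is listed for Cyp2d9 and Cyp2d22, the latter for Cyp2d9, Cyp2d22 and Cyp2d34.

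The Cyp2d9 probes overlap by 27 bases, in capitals here, and still differed by 1.40 log2 units.
Cyp2d9, probe used, bases 31 to 60: ccgCTTCCATCCTGAACACTTCCTGGATGC
Cyp2d9, other probe, bases 1 to 30: CTTCCATCCTGAACACTTCCTGGATGCcca

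**Figure D4:**
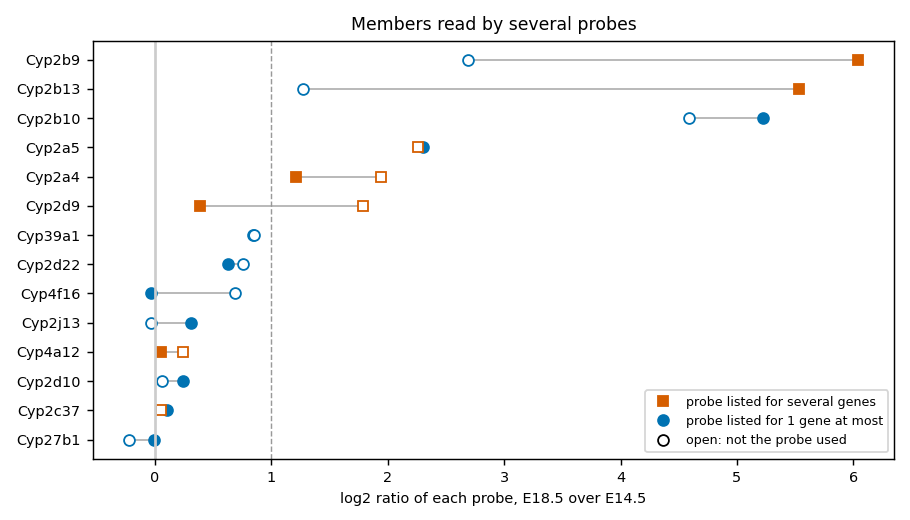
Log2 ratio, E18.5 over E14.5, of each probe of the 14 P450 genes read at both ages by several probes (orange squares, probes listed for several genes; blue circles, for 1 gene at most; open, not the probe used). The probes of Cyp2b13, Cyp2b9 and Cyp2d9 are 4.26, 3.35 and 1.40 apart, and those of the other 11 genes are within 1.

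In all, 13 P450 probes were listed for several current genes. They belonged to 9 members and supplied the value of 7, among them 3 of the 16 higher genes (Cyp2a4, Cyp2b9 and Cyp2b13). Of the 14 genes read by several probes at both ages, 3 had probes more than 1 log2 unit apart.

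In the Cyp4 family, the fatty acid hydroxylases, all 11 members were measured and 3 were at least 2-fold higher (27.3%, against 17.2% of all genes). The median log2 ratio was 0.55 over 10 members. Cyp4b1, a lung P450 that activates furan toxins, had an intensity of 337 at E14.5 against 20861 at E18.5. This was 61.9-fold higher, a log2 ratio of 5.95, with 6.13 from the processed signals, and its probe (chr4:115122854-115122913, mm8, reverse strand) is listed for no other gene. Cyp4v3, an omega-hydroxylase of fatty acids, had 624 and 4721, 7.57-fold higher, a log2 ratio of 2.92, just under the 8-fold line. Cyp4f15, of the leukotriene and fatty acid hydroxylases, had 100 and 504, 5.05-fold higher, a log2 ratio of 2.34. The processed signals gave 3.75 for Cyp4f15, a dim gene at E14.5. A smaller offset of 16 in the background correction gave 2.85, and the reason for the remaining difference was not tested. The other Cyp4f genes lay within 2-fold. Cyp4f13 had 1395 and 2110, a log2 ratio of 0.60, and Cyp4f16 had 2418 and 2377, a log2 ratio of -0.03, with 0.69 from its other probe. Cyp4f14 was well above background at E18.5 only (91 and 92, at least 1.02-fold by the bound, with a log2 ratio of -0.05 from the processed signals). The 3 Cyp4a genes, which in liver answer to PPARA, were all within 2-fold, with a median log2 ratio of 0.05.

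In the Cyp1 family, targets of the aryl hydrocarbon receptor AHR, 2 of 3 members were measured. Cyp1b1, which oxidises oestrogens and polycyclic hydrocarbons, had an intensity of 2206 at E14.5 against 5375 at E18.5. It was 2.44-fold higher, a log2 ratio of 1.28, on a probe of chromosome 17 (chr17:79615533-79615592, mm8, reverse strand). The other probe of Cyp1b1 was not well above background at either age (75 and 84). Cyp1a1, the most inducible AHR target, was well above background at E18.5 only, with 111 there and 74 at E14.5, at least 1.33-fold higher. Cyp1a2 was not well above background at either age.

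In the Cyp3 family, the main drug-metabolising P450s of liver and gut, 3 of 6 members were measured. Cyp3a13 had 117 at E14.5 against 245 at E18.5, 2.1-fold higher, a log2 ratio of 1.07, and 1.92 from the processed signals. Cyp3a41, now Cyp3a41a, had 137 and 145, a log2 ratio of 0.07. Cyp3a11 had 121 and 116, a log2 ratio of -0.07, on a probe also listed for Cyp3a41a and Cyp3a44. Cyp3a16, Cyp3a25 and Cyp3a44 were not well above background at either age.

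Of the sterol, steroid, vitamin D and retinoid Cyps, 12 of 16 were measured. At least 2-fold higher were 2 of them (16.7%, near the 17.2% of all genes). The median log2 ratio was 0.17 over 10 members. Cyp20a1 had 1161 at E14.5 against 2781 at E18.5, 2.39-fold higher, a log2 ratio of 1.26. Cyp26b1, which clears retinoic acid, had 713 and 1473, 2.07-fold higher, a log2 ratio of 1.05, just above the 2-fold line. The processed signals put Cyp26b1 at 0.94, under that line. Cyp26a1, which has the same role, had 154 and 104, a log2 ratio of -0.57, the lowest of all members. From the processed signals its ratio was -1.56, past 2-fold in the other direction. The oxysterol hydroxylases stayed within 2-fold: Cyp39a1 had 3779 and 6769, a log2 ratio of 0.84, with 0.85 from its other probe, and Cyp7b1 had 2193 and 2553, a log2 ratio of 0.22. Cyp46a1, the cholesterol hydroxylase known from brain, had 972 and 1324, a log2 ratio of 0.45. The measured genes of steroid synthesis stayed within 2-fold: Cyp11a1, the side-chain cleavage enzyme, had 110 and 100, a log2 ratio of -0.15, and Cyp17a1 had 386 and 387, a log2 ratio of 0.00. Cyp21a1, the adrenal hydroxylase, was well above background at E14.5 only (100 and 89, at least 1.12-fold lower). Of the vitamin D enzymes, Cyp27b1, which activates the hormone, had 164 and 163, a log2 ratio of -0.01. Cyp24a1, which degrades it, was measured at E18.5 only (87 and 95, at least 1.09-fold higher). The bile acid enzymes Cyp7a1 and Cyp8b1, the aromatase Cyp19a1 and the aldosterone synthase Cyp11b2 were not well above background at either age. The same held for Cyp2c38, Cyp2c54, Cyp2c65 and Cyp2d13, which completes the 12 genes without a value.

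Promoters were read for the 54 members with an entry in the RefSeq table (build GRCm38.p6), as the 250 bases before the start. Both strands were searched for 4 short motifs of factors known from lung epithelium or from P450 control, and the motifs were chosen after the promoters were in hand. The C/EBP motif TTGCNNAA stood in 6 of the 15 higher genes with a promoter (Cyp20a1, Cyp2a4, Cyp2a5, Cyp2b9, Cyp2b10 and Cyp2b13), in 4 of the 31 within 2-fold, and in 9.55% of all 27025 promoters. The Cyp2a and Cyp2b genes are copies of each other, so these are not separate occurrences. The AHR core GCGTG stood in 4 of the 15 (Cyp1b1, Cyp20a1, Cyp2b10 and Cyp4v3), in 7 of the 31, Cyp1a1 among them, and in 28.2% of all promoters. The NKX2 motif TCAAGTG stood in Cyp2f2 and Cyp3a13, in 2 of the 31, and in 2.74% of all promoters. The forkhead motif TGTTTAC stood in 0 of the 15, in 4 of the 31, and in 3.09% of all promoters. A match describes the letters of this window and says nothing of binding.

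The promoters of 4 higher genes are printed with their matches in capitals: for Cyp2f2 the NKX2 motif, for Cyp2b9 the C/EBP motif, for Cyp2b10 the C/EBP motif and both AHR cores, and for Cyp1b1 the AHR core, read on either strand. No match overlaps another in them.
Cyp2f2, chr7:27119705-27119954, forward strand: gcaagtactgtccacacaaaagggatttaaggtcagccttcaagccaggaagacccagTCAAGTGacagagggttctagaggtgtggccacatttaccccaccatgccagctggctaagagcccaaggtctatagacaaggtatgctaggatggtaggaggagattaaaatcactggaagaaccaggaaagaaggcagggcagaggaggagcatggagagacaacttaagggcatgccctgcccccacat
Cyp2b9, chr7:26173159-26173408, forward strand: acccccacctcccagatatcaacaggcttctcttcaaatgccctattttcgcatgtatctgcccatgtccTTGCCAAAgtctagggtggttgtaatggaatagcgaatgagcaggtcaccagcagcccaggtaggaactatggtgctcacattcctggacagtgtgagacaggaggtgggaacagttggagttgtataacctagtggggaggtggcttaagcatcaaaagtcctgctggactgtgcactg
Cyp2b10, chr7:25897408-25897657, forward strand: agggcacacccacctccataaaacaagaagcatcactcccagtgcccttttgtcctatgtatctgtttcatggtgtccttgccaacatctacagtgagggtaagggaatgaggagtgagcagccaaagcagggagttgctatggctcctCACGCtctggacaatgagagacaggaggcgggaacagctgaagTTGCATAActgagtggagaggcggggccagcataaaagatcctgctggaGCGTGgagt
Cyp1b1, chr17:79715062-79715311, reverse strand: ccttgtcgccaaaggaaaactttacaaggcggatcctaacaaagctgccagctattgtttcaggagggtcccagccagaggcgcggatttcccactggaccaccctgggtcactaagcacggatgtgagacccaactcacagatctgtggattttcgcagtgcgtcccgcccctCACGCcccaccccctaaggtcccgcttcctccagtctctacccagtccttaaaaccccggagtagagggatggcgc

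The genes that serve P450s were described by lists ordered by role. Of 8 electron carriers, all were measured, 2 were at least 2-fold higher and 0 lower, with a median log2 ratio of 0.42. The shares over all genes were 17.2% higher and 10.0% lower. Por, the oxidoreductase that supplies the P450s of the endoplasmic reticulum, had an intensity of 6491 at E14.5 against 127761 at E18.5, 19.7-fold higher, a log2 ratio of 4.30. Pgrmc1, a heme-binding partner of P450s, had 43252 and 112779, 2.61-fold higher, a log2 ratio of 1.38. Fdx1 and Fdxr, the ferredoxin and reductase of mitochondrial P450s, had log2 ratios of 0.38 and 0.55, both within 2-fold.

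Of 11 genes of heme synthesis and breakdown, 3 were at least 2-fold higher and 0 lower (17.2% and 10.0% of all genes). Their median log2 ratio was 0.78. Alas1, the rate-limiting enzyme of heme synthesis outside red cells, had 8517 at E14.5 against 90523 at E18.5, 10.6-fold higher, a log2 ratio of 3.41, and its other probe gave 3.03. Alad, the next enzyme, had a log2 ratio of 1.00, at the 2-fold line, and Urod had 0.98, just under it. Blvrb, a biliverdin reductase, had 1.03. Hmox1, the inducible heme oxygenase, had 0.32.

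**Figure D5:**
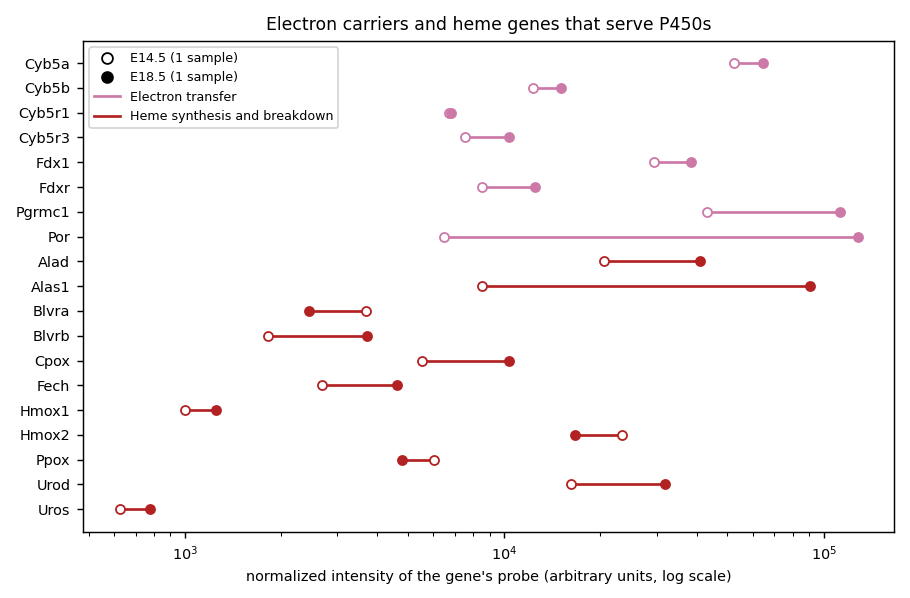
Normalized intensity on a log axis at E14.5 (open) and E18.5 (filled) of the 8 electron carriers and the 11 heme genes, 1 sample per age. The lines of Por (6491 to 127761) and Alas1 (8517 to 90523) are the longest of these genes.

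Of 22 receptors and regulators of P450 genes, 9 were at least 2-fold higher, 1 was lower and 12 were within. Over all genes 17.2% were higher and 10.0% lower. The list had a median log2 ratio of 0.43. Ahr had 5676 at E14.5 against 29683 at E18.5, 5.23-fold higher, a log2 ratio of 2.39, while its repressor Ahrr had 412 and 210, a log2 ratio of -0.98, and its partner Arnt -0.18. Vdr, the vitamin D receptor, had a log2 ratio of 3.09, and Ppara, the fatty acid receptor, 2.93. Nr1i2, the xenobiotic receptor PXR, was well above background at E18.5 only (95 and 463, at least 4.89-fold higher), and Nr1i3, the receptor CAR, at E14.5 only (95 and 84, at least 1.13-fold lower). Cebpa had 2.18, with 1.32 from its other probe, and Rarb, a retinoic acid receptor, had -1.05, with -0.29 from its other probe. Rxra had 1.07, with 0.34 from its other probe. Of 5 genes for further steps, 3 were higher, led by Ephx1, the microsomal epoxide hydrolase (1286 and 17323, 13.5-fold, a log2 ratio of 3.75). Ptgis and Tbxas1, P450s by sequence with names outside the rule, had log2 ratios of 1.53 and 1.37.

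Markers of other cells moved between the samples as well. At least 2-fold higher at E18.5 were 9 of 12 leukocyte genes and 6 of 12 endothelial genes, against 17.2% of all genes. Probes of a gene differed for some of them, with log2 ratios from -0.02 to 1.72 for Csf1r and from -0.89 to 1.91 for Ramp2. The summed leukocyte intensity was 8433 and 172523, much of it from Lyz2, which alveolar type II cells also make, and it was 6664 and 25608 without that gene. The endothelial sum was 26936 and 130359, and 22846 and 58690 without Kdr. Of 12 genes of mesenchyme and smooth muscle, 5 were lower and 0 higher (568746 and 465655), where 10.0% of all genes were lower. Of 10 alveolar type II genes, 8 were higher and 1 lower (53403 and 396974, and 18777 and 195866 without Sftpc). Of 9 erythroid genes on the array, 2 were higher and 4 lower. Their sum was 83898 and 233778, and without the adult globin gene Hba-a1 it ran the other way, 41543 and 10195. Much of that remainder at E14.5 was another globin gene, Hbb-y (32911 and 1617), while Alas2 was higher at E18.5 (2018 and 6937). The part of these cells, or of more club cells, in the P450 values was not tested. Many P450s are best known from liver. Of 9 hepatocyte genes on the array, 5 were measured (916 and 1161 summed) and 1 of them, Apob, was at least 2-fold higher, while Ttr, Apoa1, Cps1 and Ahsg were not well above background at either age.

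P450 probes under other names fell outside the rule. Of these, the probe of 6030422M01Rik, now the pseudogene Cyp4f41-ps, was at least 2-fold lower at E18.5 (476 and 178, 2.68-fold, a log2 ratio of -1.42). So were 10.0% of all genes. Cyp4f39 had a log2 ratio of 0.49, Cyp2d12 of 0.31 and Cyp4a31 of 0.15. Cyp2b23, a further Cyp2b gene of the same region, was well above background at E18.5 only, with 120 there and 83 at E14.5.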

How the data were processed

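RNA of 1 lung per age was measured on 1 array. Both deposited scanner outputs were identical in 115 of 115 columns and so stand for a single array, whose green channel holds E14.5 and red channel E18.5, per the labels. Per the file headers, the tables hold linear mean and background median intensities of Agilent Feature Extraction, its processed intensities, and 0 or 1 flags for other properties of a spot. The submitters' processing notes give the software's version as 9.5.3.1. Probe coordinates are on mm8, per the file headers. The authors' value table held the processed intensity times 0.339 with a floor of 15, by comparison with the deposited scanner intensities. Its column medians were 129 and 130, it was not centred, and its direction is known from the match of each column to its own channel.

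The 45018 spots were background-corrected with normexp (offset 50) and normalized by loess in limma 3.58.1 (R 4.3.3), which was tested on simulated data. Controls and outliers had weight 0. Where several probes of a gene passed the scanner's background flag in either channel, the one of highest average intensity gave its value. A probe above background in 1 channel gave a bound, the bright signal over the higher of the dim spot and the lowest signal above background of that channel (83.4 at E14.5, 63.2 at E18.5). Bounds are open to dye bias, and those close to 1-fold do not settle a direction.

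Named with values were the 8 largest and 5 smallest members per group among those 2-fold apart, all bounds, the 2 brightest per group and age, and members with probes over 1 log2 unit apart. Cyp2r1, Cyp2b19, Cyp4f39 and others within 2-fold, and the probes outside the rule, were named after their values were seen. The members and lists were chosen with earlier results of these data known. The number of arrays, 1, limits precision. A gene of the heme list is not reported here and was left out of its count and median.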

Additional observations from a re-analysis of the deposited data

Results flagged for a closer look

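The probe of 6030422M01Rik, now Cyp4f41-ps, was not among the members by name. It stood out because it lay more than 2-fold lower at E18.5, with a log2 ratio of -1.42. In the main setting 0 of the 59 measured P450 genes did, against 10.0% of all genes. The probe's intensity went from 476 at E14.5 to 178 at E18.5, and the processed signals gave -2.07. Those signals put 2 members, Cyp26a1 and Cyp2u1, at least 2-fold lower, against 15.2% of all genes. The probe lies on chromosome 17 (chr17:32689698-32689757, mm8), in the region of the Cyp4f genes. Of these, Cyp4f15 was higher and Cyp4f13, Cyp4f14 and Cyp4f16 were within 2-fold. No replicate of either age could be set beside it.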

How the results depend on the processing

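The count of P450 genes at least 2-fold higher was 15 to 18 over the 8 alternatives, against 16. The count lower was 0 except with the scanner software's processed signals and with the authors' value table, where it was 2 (Cyp26a1 and Cyp2u1). Both are dim genes. These settings add no offset, an offset of 16 gave 0 lower, and the reason for the difference was not tested. The processed signals and the value table also shifted the median of all genes by -0.13 and -0.11 (log2). They lost Cyp26b1 and gained Cyp2c29 and Cyp2r1, with Cyp2a12 in the former. The median ratio of the members was 0.39 to 0.45, and 0.21 with dim probes kept. Cyp2d9 passed 2-fold with the median over probes (1.09). Cyp2r1 also passed it with an offset of 16 and with median centring. Probes listed for 1 gene, an alternative chosen after seeing the data, gave 2.69 for Cyp2b9 and 1.27 for Cyp2b13. With them 4 members instead of 6 were at least 8-fold higher. This count is of the main setting, since the processed signals gave 4.39 for that Cyp2b9 probe. With the probes of the main setting, the processed signals and the value table gave 7, with Cyp4f15. No named ratio with a call changed sign; Cyp4f16, within 2-fold, ran from -0.16 to 0.33. No paired analysis was possible because each age had 1 sample.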
